A study of Mus musculus with 12 samples.

Results

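The 50 mitosis and G2/M genes described here carry a cell from the end of DNA replication through division. They were taken by name from a list of genes of known mitotic function, and 50 of 50 were found among the 37187 genes of the deposited table. All 50 passed the filter on low values (a signal of at least 10 in at least 3 libraries), as did 14045 genes in all. The lowest value of a member in any library was 86.4 (72 reads) and the highest 18648 (23604 reads), so none was near the limit of detection.

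RNA-seq was made from LSK cells of mouse bone marrow, which lack lineage markers and carry Sca-1 and c-Kit at their surface; this gate takes in blood stem cells and early progenitors. The 4 genotypes were Tet2;Traf6 double knockout (dKO), Traf6 KO, Tet2 KO and wild type (WT), with 3 libraries each. Tet2 codes for a dioxygenase that acts on methylated cytosine in DNA, and Traf6 for a ubiquitin ligase of Toll-like and interleukin-1 receptor signalling. Age, sex, deleted exons and Cre driver are not given in the labels. Whether the libraries of one genotype come from different animals is not stated either. The p-values of the main fit set differences between groups against the spread among these libraries only. That spread was pooled over the 4 genotypes and moderated across genes.

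Entry into mitosis depends on cyclin-dependent kinase CDK1 bound to cyclin B, which CDC25 phosphatases switch on and which works together with Polo and Aurora kinases. Chromosomes are compacted by condensin and topoisomerase II, held at kinetochores by the spindle, watched by the spindle checkpoint, and released when the anaphase-promoting complex with CDC20 destroys cyclin B and securin and so frees separase. Most of these genes are silent in quiescent stem cells and are transcribed together from late S phase, through promoters in which a CHR element and CCAAT boxes are bound by the MuvB complex, FOXM1 and NF-Y.

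Promoters are shown because the members are known to be transcribed together while in dKO some rose and others fell. RefSeq (GRCm38.p6) gave a promoter, 250 bases before to 50 after the start, for 40 of the 50 members. A CHR element (TTTGAA on either strand) was present in 28 of these 40 (70%), against 20.2% of 27025 mouse genes with a promoter in the same table. A CCAAT box (CCAAT on either strand) was present in 30 of 40 (75%), against 41.1%. Both motifs stood in 1 promoter in 25 of 40 (62.5%), against 7.97%. The motifs were searched separately, and an overlap between them was allowed. Of the members that passed the test in dKO against WT, the CHR was found in 6 of 8 that rose and 11 of 14 that fell, and in 11 of 18 that did not pass. The CCAAT box was found in 6 of 8, 13 of 14 and 11 of 18 of the same groups. The stretches below run 5′ to 3′ from 130 bases before to 20 bases after the start of 4 members that rose in dKO (Cdk1, Ccnb2, Cdc20, Ube2c) and 4 that fell (Kif11, Top2a, Espl1, Ncapd2), picked because both motifs stand in each. Capitals mark each match to the letters of the CHR (TTTGAA, or TTCAAA on the other strand) and the CCAAT box (CCAAT, or ATTGG), wherever it stands. Of 40 CHR matches, counted in each listed promoter, 28 began within 50 bases of the start. The match in Ncapd2 began at base -123.
Cdk1, chr10:69352893-69353042, minus strand: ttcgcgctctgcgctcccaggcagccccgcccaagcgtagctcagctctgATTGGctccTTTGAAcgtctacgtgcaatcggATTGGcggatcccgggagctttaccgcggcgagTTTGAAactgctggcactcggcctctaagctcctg
Ccnb2, chr9:70421535-70421684, minus strand: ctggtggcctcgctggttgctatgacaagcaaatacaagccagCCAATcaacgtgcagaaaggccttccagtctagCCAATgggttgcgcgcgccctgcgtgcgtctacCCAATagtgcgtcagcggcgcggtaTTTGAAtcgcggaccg
Cdc20, chr4:118437324-118437473, minus strand: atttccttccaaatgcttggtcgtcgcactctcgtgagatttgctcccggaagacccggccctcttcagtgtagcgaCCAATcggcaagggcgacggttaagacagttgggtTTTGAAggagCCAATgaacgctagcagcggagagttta
Ube2c, chr2:164769799-164769948, plus strand: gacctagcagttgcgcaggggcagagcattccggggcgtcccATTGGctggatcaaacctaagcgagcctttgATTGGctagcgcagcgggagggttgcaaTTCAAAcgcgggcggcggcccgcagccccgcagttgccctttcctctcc
Kif11, chr19:37376252-37376401, plus strand: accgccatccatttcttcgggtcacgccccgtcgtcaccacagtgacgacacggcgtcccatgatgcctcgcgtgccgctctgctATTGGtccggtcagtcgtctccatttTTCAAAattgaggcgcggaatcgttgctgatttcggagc
Top2a, chr11:99024170-99024319, minus strand: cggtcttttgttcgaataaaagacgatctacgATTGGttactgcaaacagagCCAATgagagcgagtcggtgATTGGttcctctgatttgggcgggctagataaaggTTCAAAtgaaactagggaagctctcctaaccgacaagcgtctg
Espl1, chr15:102296163-102296312, plus strand: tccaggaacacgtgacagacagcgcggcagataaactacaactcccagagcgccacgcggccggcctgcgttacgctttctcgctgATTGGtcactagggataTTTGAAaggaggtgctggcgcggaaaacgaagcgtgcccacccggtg
Ncapd2, chr6:125191567-125191716, minus strand: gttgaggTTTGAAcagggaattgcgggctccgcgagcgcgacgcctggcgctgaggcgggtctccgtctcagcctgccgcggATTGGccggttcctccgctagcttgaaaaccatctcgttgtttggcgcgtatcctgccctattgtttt
These 8 were picked for holding both motifs, so they cannot show how often the motifs go with either direction. Of the called members, Birc5 and Mad2l1, which rose, held neither motif. Among those that fell, Bub1, Cdc25b and Cenpe held no CHR and Anln no CCAAT box.

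Some libraries stood apart. Reads per library numbered 22169673 to 53921402. Normalised totals ran from 25557760 to 28916082 in 11 libraries and reached 39973892 in dKO replicate 3. Traf6 signal was 799, 1313 and 967 in dKO replicates 1, 2 and 3, 2474, 854 and 568 in Traf6 KO, 3127, 1432 and 1776 in Tet2 KO and 1935, 3006 and 2957 in WT. Tet2 signal was 326, 197 and 261 in dKO, 722, 339 and 427 in Traf6 KO, 668, 403 and 486 in Tet2 KO and 525, 783 and 740 in WT. The libraries labelled Traf6 KO replicate 1 and Tet2 KO replicate 1 lay within the WT range for the gene their label names; since the deleted exons are not given, reads from outside them cannot be set apart. Xist was read at 990.3 or more in the 6 single-knockout libraries and at 17.0 or less in dKO and WT, so comparisons of a single knockout also set libraries of different sex-linked expression against each other. The Y-linked Eif2s3y was read at 55.4 or less in 5 single-knockout libraries but at 1524 in the one labelled Traf6 KO replicate 1. Kif4 is the X-linked member.

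The labelled cell type was checked against 6 genes of the LSK compartment (Kit, Ly6a, Cd34, Flt3, Slamf1, Cd48), all of which were detected, with summed signals of 91169 to 105155 in dKO, 99518 to 117373 in Traf6 KO, 101609 to 130738 in Tet2 KO and 101941 to 122140 in WT. Kit, which encodes the receptor used for the sort, stood at 11935, 4099 and 4105 in dKO, 56213, 32355 and 39911 in Traf6 KO, 51517, 24029 and 28639 in Tet2 KO and 44484, 47837 and 47804 in WT. It fell in dKO against WT (log2 change -2.99 ± 0.39 SE, limma adjusted p = 0.000326). Of the 6 genes 1 rose and 2 fell, so similar sums hide changes in both directions. Slamf1 stood at 392, 683 and 411 in dKO and 1179, 893 and 760 in WT. Cd48 stood at 11723, 15734 and 26688 in dKO and 5266, 3179 and 4375 in WT. Ly6a stood at 1968, 2446 and 13218 in dKO and 2339, 2205 and 1990 in WT. The 8 markers of neutrophil and monocyte progenitors summed to 124984 to 203588 in dKO, 18654 to 121673 in Traf6 KO, 47891 to 103864 in Tet2 KO and 15257 to 28027 in WT, and 7 of 8 rose in dKO against WT. Of 6 mast cell and basophil markers 5 rose and of 8 measured erythroid markers 3 rose, with sums of 5985 to 10448 and 83957 to 119974 in dKO against 1355 to 2117 and 45059 to 56819 in WT. The erythroid sum ran from 61561 to 183480 in Tet2 KO, where replicate 3 stood apart with the highest Car1 (54843) and Klf1 (4699) of the 12 libraries. Replicate 3 was also the highest Tet2 KO library for Cdk1, Ccnb1, Plk1 and Ube2c. Of 8 B, T and NK cell markers 6 were tested and 3 rose (sums of 14950 to 109850 in dKO and 10100 to 14312 in WT), while 2 of the 8 were at 0 in every dKO library. Of 6 macrophage and dendritic cell markers tested 1 rose, of 6 megakaryocyte markers 1 rose and 1 fell, and of 7 mature neutrophil markers 0 passed. Of all genes tested 21.9% rose and 26.5% fell, and of those with transcripts up to 2000 nucleotides 51.4% rose. The lists other than LSK had median lengths of 915 to 1646 nucleotides. With the length and GC trend given below removed, 13.1% of genes rose and 12% fell. Of the markers 8 of 8 progenitor, 5 of 6 mast cell and basophil and 1 of 8 erythroid then rose. Of B, T and NK cell and of macrophage and dendritic cell markers 1 of 6 each rose, and 3 of 6 megakaryocyte markers fell. In dKO against Tet2 KO 5 of 7 mature neutrophil markers, 4 of 6 macrophage and dendritic cell markers, 5 of 6 mast cell and basophil markers and 5 of 8 progenitor markers rose, and 0 of 8 erythroid markers passed. In dKO against Traf6 KO 5 of 8 progenitor and 2 of 8 erythroid markers rose, and 1 of 6 mast cell and basophil markers fell. Of all genes up to 2000 nucleotides 38.3% rose against Tet2 KO and 41.9% against Traf6 KO. With the trend removed, 6.58% of genes rose against Tet2 KO and 6.11% against Traf6 KO. Against Tet2 KO 5 mast cell and basophil, 3 macrophage and dendritic cell, 2 progenitor and 2 mature neutrophil markers then rose. Against Traf6 KO 1 progenitor and 0 erythroid markers then rose, and 2 mast cell and basophil markers fell. These marker levels move with the dKO results below, and their part in them was not tested. In bulk RNA fewer cells of a type and less RNA per cell cannot be told apart.

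In WT, the highest signal per kilobase of principal transcript was that of Top2a, the DNA topoisomerase of chromosome condensation, at 2984 ± 539 (SD, n = 3). Ccnb2, Pbk and Bub3 followed at 2972 ± 265, 2870 ± 423 and 2837 ± 129, and these 4 did not differ beyond their spread. The lowest levels per kilobase were those of Ube2s at 106 ± 10.5, Cenpf at 176 ± 20.4, Cenpe at 226 ± 36.2 and Espl1 at 254 ± 56.8. In dKO the highest levels per kilobase were those of Birc5 at 6443 ± 4999, Bub3 at 5704 ± 2256, Mad2l1 at 5637 ± 1077 and Ube2c at 5559 ± 5591, and the lowest that of Espl1 at 42.0 ± 31.5. These ranks depend on the transcript used. The longest transcripts of Birc5, Bub3, Mad2l1 and Ube2c have 3334, 4015, 7557 and 2191 nucleotides, against 947, 2218, 1725 and 967 used here. Birc5 (11545) and Ube2c (11581) were highest in dKO replicate 3, and short transcripts of all genes stood higher in dKO, as given below. Top2a stood at 1076 ± 739 per kilobase in dKO.

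**Figure D1:**
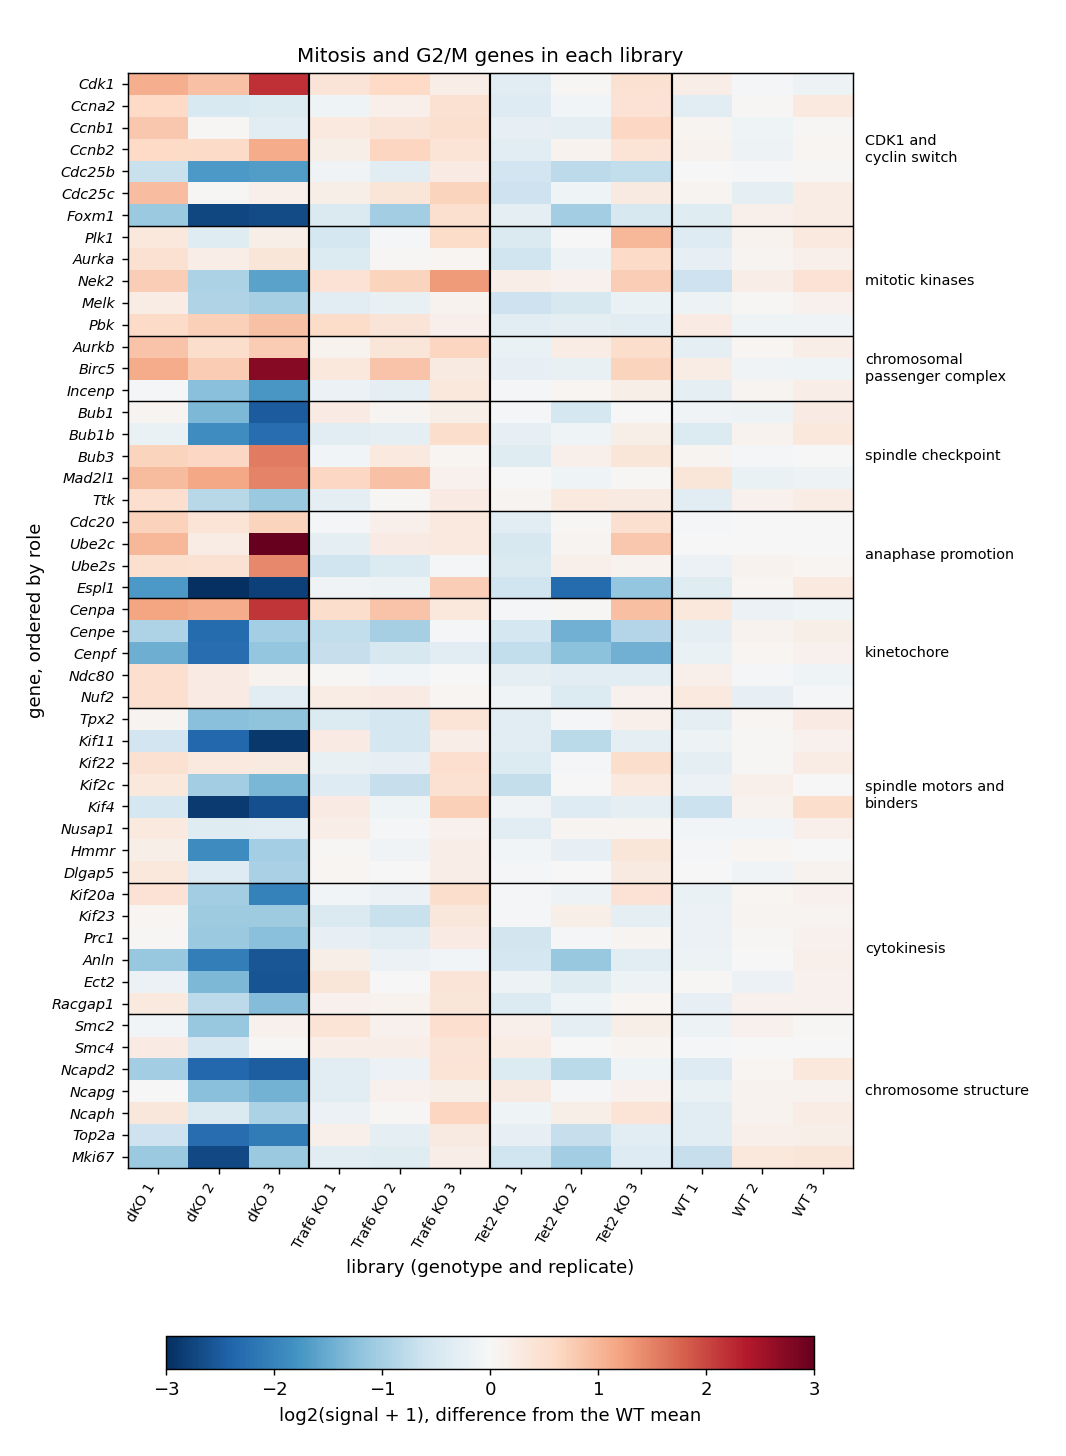
Log2(signal + 1) of the 50 genes (down, grouped by role) in the 12 libraries (across, dKO at the left and WT at the right), as the difference from the mean of the 3 WT libraries; colours stop at 3 in either direction. Within the dKO libraries Cdk1, Birc5, Mad2l1 and Cenpa are red and Foxm1, Espl1, Anln and Ncapd2 blue, and dKO replicate 1 is paler than dKO replicates 2 and 3 for most blue genes.

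In dKO against WT the mitotic genes split. Of 50, 10 rose and 16 fell (limma, adjusted p under 0.05 over all genes tested), so 20% rose and 32% fell. Among all 14045 genes tested 21.9% rose and 26.5% fell, so the share of members called was near the background in both directions. The median log2 change of the members was -0.52, against -0.09 over all genes tested, with single values from -2.88 to 1.53. In 13 members each dKO value lay above each WT value and in 10 each lay below. The share of all genes so separated was not taken, so these counts do not set the members apart. On the recovered reads edgeR called 21 members and 6539 of the 14045 genes, and DESeq2 24 members and 7478 genes. With libraries scaled to equal totals 5 rose and 19 fell, and the medians were -0.77 for the members and -0.34 for all genes tested. No share of all genes called was taken for that scaling. Of the 26 calls 17 held in each of 12 fits that left out a library. The number that rose was 6 without WT replicate 2, and the number that fell was 27 without dKO replicate 1.

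The CDK1 and cyclin switch holds 7 members, of which 2 rose and 2 fell. Cdk1 (chromosome 10, 69335146 to 69352938), the kinase that drives entry into mitosis, stood at 6707, 5818 and 14462 in dKO, 4122, 4827 and 3658 in Traf6 KO, 2562, 3277 and 4383 in Tet2 KO and 3622, 3068 and 2877 in WT. Each dKO library was above the other 9, and dKO replicate 3 was the highest. Cdk1 was 2.60-fold higher in dKO than in WT (log2 change 1.38 ± 0.32 SE, adjusted p = 0.00422). Ccnb2, a cyclin B that partners CDK1, stood at 6894, 6754 and 9790 in dKO, 5099, 7054 and 6077 in Traf6 KO, 3611, 4878 and 6014 in Tet2 KO and 4855, 4090 and 4705 in WT, and rose against WT by a log2 change of 0.76, a call that ended without dKO replicate 3 or WT replicate 2. Ccnb1, the other cyclin B, stood at 3170, 1842 and 1446 in dKO, 2205, 2361 and 2534 in Traf6 KO, 1526, 1503 and 2775 in Tet2 KO and 1907, 1659 and 1857 in WT. Its dKO values lay on both sides of the WT range and it did not pass the test (log2 change 0.17, adjusted p = 0.660).

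Foxm1 (chromosome 6, 128362967 to 128376146), the transcription factor that switches on many G2/M genes, stood at 685, 222 and 231 in dKO, 1097, 723 and 2067 in Traf6 KO, 1207, 719 and 1057 in Tet2 KO and 1154, 1639 and 1736 in WT. All 3 dKO libraries were below the 9 others. It was 0.221 of WT in dKO (log2 change -2.18 ± 0.46 SE, adjusted p = 0.00279). Cdc25b, a phosphatase that activates CDK1, also fell (479 ± 215 in dKO and 1152 ± 28.2 in WT, SD, n = 3 each; log2 change -1.35). Cdc25c and Ccna2 had log2 changes of 0.38 and -0.09 and did not pass.

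Among the 5 mitotic kinases Pbk rose and none fell. Pbk, a serine/threonine kinase active in mitosis, stood at 7278, 7998 and 9032 in dKO, 7187, 6456 and 5478 in Traf6 KO, 3864, 3981 and 3881 in Tet2 KO and 5777, 4493 and 4540 in WT. The lowest dKO value was above the highest value of every other genotype. Plk1, the Polo kinase of mitotic entry and spindle assembly, stood at 2093, 1308 and 1889 in dKO, 1164, 1612 and 2442 in Traf6 KO, 1238, 1684 and 3318 in Tet2 KO and 1269, 1796 and 2050 in WT. The 4 genotypes overlapped, and the log2 change in dKO against WT was 0.05 (adjusted p = 0.926). Aurka, the Aurora kinase of spindle poles, had 0.34, while Nek2, a centrosome kinase, and Melk had -0.61 and -0.56, and none of these 3 passed.

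In the chromosomal passenger complex, which corrects faulty kinetochore attachments and later guides cytokinesis, the kinase and its small subunit rose and the scaffold fell. Aurkb, the kinase, stood at 6545, 5173 and 6084 in dKO, 3897, 4676 and 5603 in Traf6 KO, 3141, 4191 and 5222 in Tet2 KO and 3016, 3744 and 4160 in WT. Birc5 (survivin) stood at 3815, 2945 and 11545 in dKO, 2177, 3187 and 2112 in Traf6 KO, 1463, 1500 and 2781 in Tet2 KO and 2056, 1630 and 1596 in WT. Both were above WT in each dKO library, and most of the dKO mean of Birc5 came from replicate 3. Their log2 changes in dKO against WT were 0.71 and 1.53, and that of Birc5 was 0.94 without dKO replicate 3. The call of Aurkb ended without WT replicate 1 or 2. Incenp, the scaffold, averaged 2882 ± 1856 in dKO and 5149 ± 878 in WT (SD, n = 3 each), with a log2 change of -1.01. Its call ended without dKO replicate 2 or 3 or WT replicate 2 or 3.

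The spindle checkpoint, which holds anaphase back until chromosomes are attached, had 2 of 5 members up and 2 down. Mad2l1 (chromosome 6, 66535390 to 66547220), the MAD2 protein that binds CDC20, stood at 8061, 9379 and 11729 in dKO, 6393, 7706 and 4554 in Traf6 KO, 4143, 3810 and 4256 in Tet2 KO and 5344, 3643 and 3732 in WT. Bub3 (chromosome 7, 131560222 to 131571895), which brings BUB kinases to kinetochores, stood at 9930, 9601 and 18426 in dKO, 5944, 7752 and 6560 in Traf6 KO, 4906, 6971 and 8070 in Tet2 KO and 6612, 6056 and 6210 in WT. For both genes the lowest dKO value was above the highest of every other genotype. They rose against WT with log2 changes of 1.20 and 0.94. Bub1b (BUBR1), part of the checkpoint's inhibitor of CDC20, stood at 4034, 1289 and 960 in dKO, 3702, 3806 and 6675 in Traf6 KO, 3940, 4285 and 5261 in Tet2 KO and 3490, 5040 and 5764 in WT. Replicate 1 of dKO lay among the WT values and the other 2 far below them, so the groups overlapped. Bub1b and the kinase Bub1 fell by 1.45 and 1.25 on the log2 scale. The Bub1b call ended without dKO replicate 2 or 3 or WT replicate 2 or 3, and that of Bub1 without those libraries, WT replicate 1 or the library labelled Tet2 KO replicate 1. Ttk, the MPS1 kinase that starts the checkpoint, had -0.48 and did not pass.

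Of the 4 members that promote anaphase 2 rose and 1 fell. Cdc20, the activator of the anaphase-promoting complex, stood at 6701, 5517 and 6697 in dKO, 4045, 4683 and 5123 in Traf6 KO, 3320, 4295 and 5792 in Tet2 KO and 4084, 4230 and 4235 in WT. Ube2c, the enzyme that starts ubiquitin chains for that complex, stood at 2859, 1685 and 11581 in dKO, 1189, 1700 and 1761 in Traf6 KO, 1025, 1522 and 2502 in Tet2 KO and 1421, 1441 and 1438 in WT. Both were above WT in all 3 dKO libraries and rose with log2 changes of 0.59 and 1.41. These calls ended in 10 and 8 of the 12 fits that left out a library, and Ube2c had 0.61 without dKO replicate 3. Ube2s, which extends the chains, stood at 184, 179 and 359 in dKO, 86.4, 98.6 and 126 in Traf6 KO, 96.0, 146 and 140 in Tet2 KO and 116, 141 and 137 in WT. Its dKO values were the 3 highest, without passing the test (log2 change 0.80, adjusted p = 0.107). Espl1 (chromosome 15, 102296266 to 102324357), the protease separase that cuts cohesin, stood at 507, 93.9 and 238 in dKO, 1536, 1491 and 2766 in Traf6 KO, 1100, 335 and 749 in Tet2 KO and 1294, 1738 and 2047 in WT. Every dKO value was below every WT and Traf6 KO value, while Tet2 KO replicate 2 lay within the dKO range. Espl1 was 0.136 of WT in dKO (log2 change -2.88 ± 0.55 SE, adjusted p = 0.00168), the lowest change of any member.

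At the kinetochore 1 of 5 members rose and 2 fell. Cenpa, the histone that marks centromeres, stood at 5943, 5744 and 11688 in dKO, 3778, 4752 and 3285 in Traf6 KO, 2546, 2711 and 4934 in Tet2 KO and 3278, 2335 and 2394 in WT. Each dKO value was above the 9 others, and the log2 change against WT was 1.48. Cenpe, a kinesin that moves chromosomes to the spindle equator, stood at 937, 357 and 878 in dKO, 1063, 894 and 1740 in Traf6 KO, 1232, 651 and 957 in Tet2 KO and 1465, 1902 and 2005 in WT. Cenpf, a large outer kinetochore protein, stood at 707, 399 and 874 in dKO, 1209, 1386 and 1551 in Traf6 KO, 1162, 832 and 720 in Tet2 KO and 1701, 2018 and 2142 in WT. Both Cenpe and Cenpf were below WT in each dKO library and in each Tet2 KO library. In dKO against WT they fell by 1.42 and 1.63 on the log2 scale, and Cenpf was 0.323 of WT (SE 0.30, adjusted p = 0.00146). Ndc80, which binds microtubules at the kinetochore, stood at 3460, 2916 and 2656 in dKO, 2520, 2304 and 2446 in Traf6 KO, 1990, 1984 and 1971 in Tet2 KO and 2740, 2408 and 2229 in WT. Ndc80 and its partner Nuf2 had log2 changes of 0.29 and 0.14 against WT and did not pass.

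Of 8 spindle motors and binders none rose and Kif11 and Kif4 fell. Kif11 (chromosome 19, 37376403 to 37421859), the motor that pushes spindle poles apart, stood at 4573, 1323 and 911 in dKO, 8041, 4711 and 7771 in Traf6 KO, 5421, 3915 and 5566 in Tet2 KO and 6116, 6964 and 7431 in WT. The dKO values were below WT in each library, and replicate 1 was several times the other 2. Kif11 had a log2 change of -1.95 against WT. Kif4, a chromosome-bound kinesin, averaged 645 ± 619 in dKO and 2060 ± 787 in WT (SD, n = 3 each; log2 change -2.02), and dKO replicate 1 overlapped WT. The other 6 (Tpx2, Kif22, Kif2c, Nusap1, Hmmr and Dlgap5) ran from -0.91 for Hmmr to 0.34 for Kif22, and none passed.

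Cytokinesis genes had 2 of 6 members down. Prc1, which bundles microtubules between the separating chromosomes, stood at 4641, 2090 and 1882 in dKO, 3793, 3607 and 5363 in Traf6 KO, 3108, 4318 and 4810 in Tet2 KO and 4025, 4618 and 4973 in WT. Replicate 1 of dKO lay within WT and the other 2 below every library of the other genotypes, and the gene did not pass (log2 change -0.78, adjusted p = 0.0584). Anln (chromosome 9, 22332012 to 22389188), the scaffold of the contractile ring, stood at 927, 484 and 341 in dKO, 2289, 1802 and 1938 in Traf6 KO, 1427, 930 and 1640 in Tet2 KO and 1831, 2053 and 2263 in WT. The dKO values were the 3 lowest, with 1 close to Tet2 KO replicate 2. Anln was 0.262 of WT (log2 change -1.93 ± 0.34 SE, adjusted p = 0.00107). Ect2, which activates RhoA for furrowing, fell by 1.37, a call that ended without WT replicate 3. Kif20a, Kif23 and Racgap1 had -0.87, -0.69 and -0.60 and did not pass.

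Chromosome structure genes had 4 of 7 members down and none up. Top2a stood at 10066, 3181 and 3598 in dKO, 17074, 12823 and 18648 in Traf6 KO, 13005, 9504 and 12219 in Tet2 KO and 12339, 16988 and 17413 in WT. Mki67 (Ki-67), the coat of mitotic chromosomes and a common marker of cycling cells, stood at 1485, 497 and 1501 in dKO, 2533, 2513 and 3709 in Traf6 KO, 2148, 1572 and 2452 in Tet2 KO and 1998, 4041 and 4162 in WT. Ncapd2, a condensin I subunit, stood at 3641, 1469 and 1358 in dKO, 5906, 6654 and 10005 in Traf6 KO, 5690, 4324 and 6916 in Tet2 KO and 5753, 7876 and 9419 in WT. For all 3 genes each dKO value was below each WT value. Log2 changes against WT were -1.66 for Top2a and -1.64 for Mki67, and Ncapd2 was 0.257 of WT (log2 change -1.96 ± 0.36 SE, adjusted p = 0.00139). Ncapg, another condensin I subunit, had -0.88, a call that ended in 7 of the 12 fits that left out a library. Smc4, Smc2 and Ncaph had -0.07, -0.37 and -0.34 and did not pass.

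**Figure D2:**
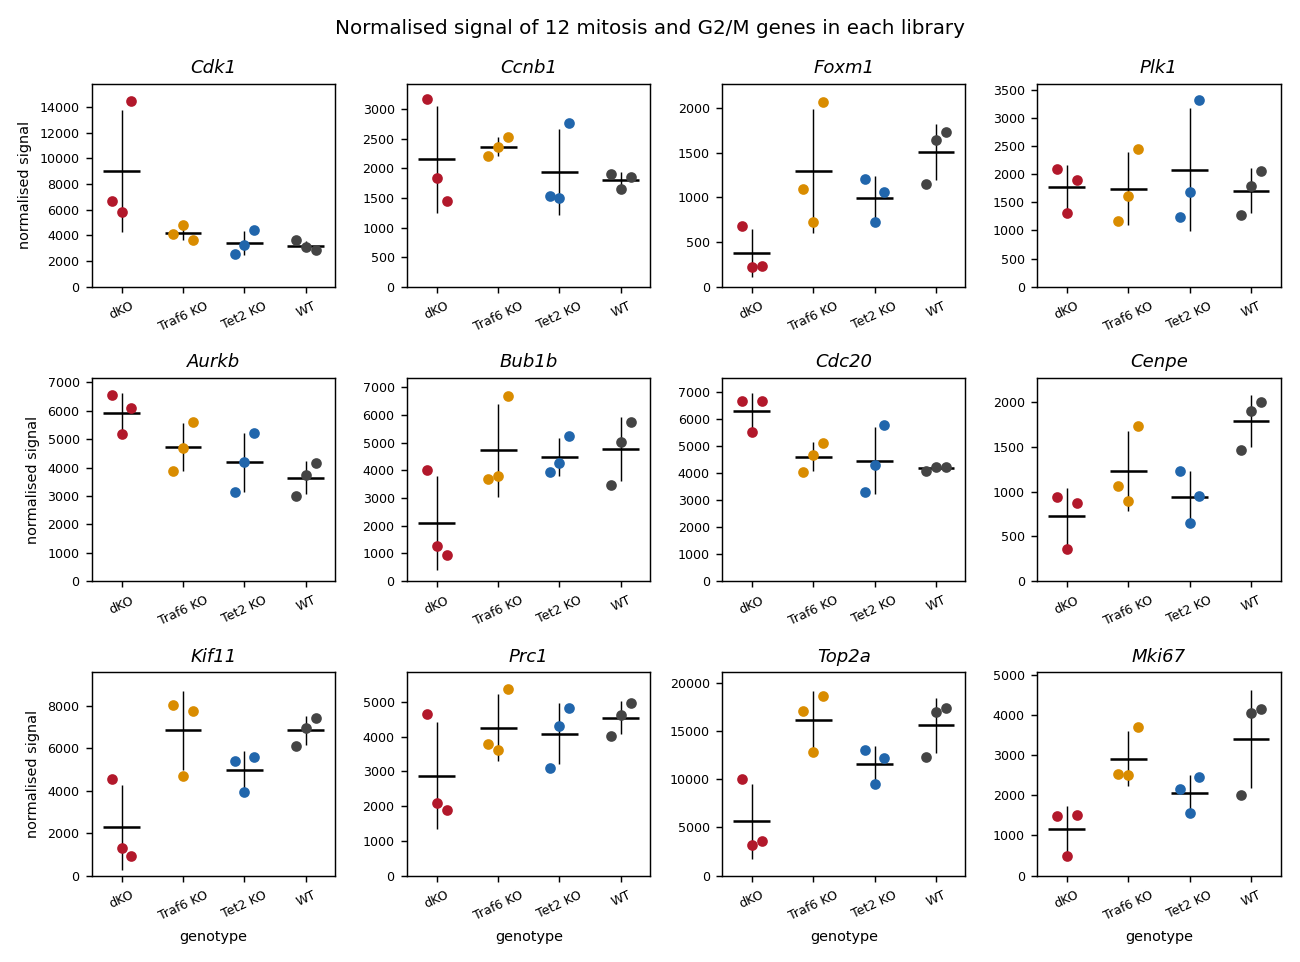
Normalised signal (linear axis from 0) of 12 genes in each library; points are libraries, horizontal bars means and vertical bars SD (n = 3), with dKO at the left and WT at the right of each panel. The means of Cdk1, Aurkb and Cdc20 are highest in dKO, those of Foxm1, Kif11, Top2a and Cenpe lowest there, and for Bub1b, Kif11, Prc1 and Top2a dKO replicate 1 stands above the other 2 dKO libraries.

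Members that rose in dKO had short transcripts and members that fell long ones, with few exceptions. Principal transcripts (GENCODE M21) ran from 947 nucleotides for Birc5 to 11130 for Cenpf, with a median of 3039, against 2803 over all genes tested with a length. Among the 11 members of up to 2000 nucleotides 8 rose and none fell in dKO against WT, with a median log2 change of 0.76. Among the 24 of over 2000 and up to 4000 nucleotides 1 rose and 5 fell (median -0.58), and among the 15 of over 4000 nucleotides 1 rose and 11 fell (median -1.64). All genes tested did the same, with medians of 1.10, -0.25 and -1.42 in these length classes. Of all genes up to 2000 nucleotides 51.4% rose and 2.57% fell, of those over 2000 and up to 4000 nucleotides 12.2% rose and 22.4% fell, and of the longer ones 3.65% rose and 59.3% fell. Across the 50 members Spearman's rho between log2 change and length was -0.85, and across 13660 genes it was -0.66. Both are descriptions across genes of the same libraries. The rho of the members was -0.84 in dKO against Traf6 KO and -0.78 in dKO against Tet2 KO, -0.35 in Traf6 KO against WT and -0.50 in Tet2 KO against WT.

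**Figure D3:**
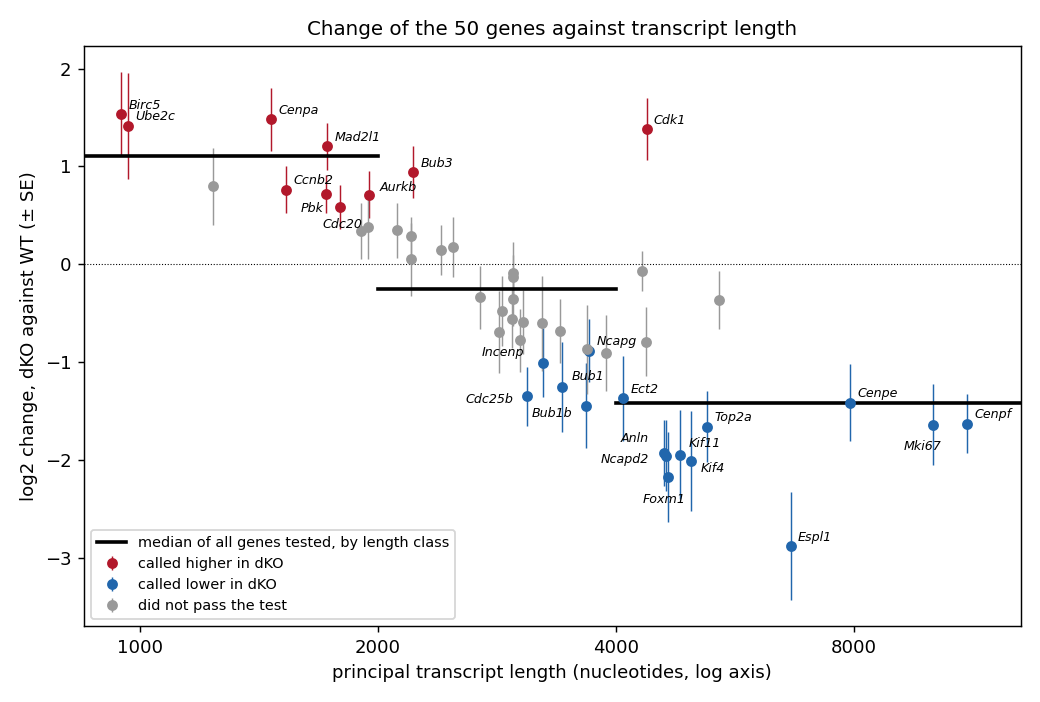
Log2 change in dKO against WT (± SE) of the 50 genes against principal transcript length (log axis), coloured by the limma call, with black lines at the median of all genes tested in each length class. The short members from Birc5 to Aurkb lie above 0 and most of the long ones below, around the black lines, while Cdk1 at 4375 nucleotides lies far above the line of its class and Espl1 below it.

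Some members left this pattern. Cdk1 was the member over 4000 nucleotides that rose, but of the 4375 nucleotides of its principal transcript 891 are coding. Bub3 was the member of over 2000 and up to 4000 nucleotides that rose. Espl1, at 6658 nucleotides, had a lower change than the longer Cenpe, Mki67 and Cenpf. Smc4 (4316 nucleotides) and Smc2 (5404), the core ATPases of condensin, had changes near 0 where the class median of all genes was -1.42.

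A trend on transcript length and GC content was therefore removed in each library. In dKO against WT 4 members then rose and 5 fell, where 13.1% and 12% of 13660 genes did. The rises were Cdk1 (log2 change 2.41 ± 0.40 SE, adjusted p = 0.00161), Smc4 (0.76 ± 0.21, adjusted p = 0.0168), Mad2l1 (0.73 ± 0.17, adjusted p = 0.00750) and Bub3 (0.69 ± 0.23, adjusted p = 0.0468). Those that fell were Espl1 (-1.57 ± 0.44, adjusted p = 0.0216), Kif11 (-0.93 ± 0.31, adjusted p = 0.0440), Anln (-0.91 ± 0.23, adjusted p = 0.0134), Cdc25b (-0.83 ± 0.21, adjusted p = 0.0111) and Foxm1 (-0.83 ± 0.28, adjusted p = 0.0488). Of the 26 calls on the deposited values 8 remained. The median of the members was -0.17 and that of all genes 0.02. Spearman's rho with length was then -0.52 across the members and -0.13 across 13660 genes, so part of the relation remained. With the trend removed and dKO replicate 3 left out, 3 rose and 4 fell: the calls of Bub3, Kif11 and Foxm1 ended (0.44, -0.59 and -0.64) and Cenpf passed (-0.97, adjusted p = 0.0151).

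Which length entered the trend mattered for some genes. With the longest transcript or with the coding part in place of the principal transcript, Cdk1, Mad2l1 and Bub3 still rose and Espl1, Cdc25b and Foxm1 still fell. Cdk1 had 2.14 with the longest transcript and 1.11 with the coding length. Mad2l1 had 2.47 and 0.80, and Bub3 had 1.60 and 0.73. In all, 10 rose and 6 fell with the longest transcript and 12 rose and 3 fell with the coding length, where the members' median turned to 0.30. No share over all genes was taken with these lengths, so the counts are not read as a result about the members. Anln and Kif11 did not pass with the coding length (-0.46 and -0.55). After the trend on principal transcripts was removed, the short members Cenpa, Birc5, Ube2c, Ccnb2 and Ube2s had 0.61, 0.23, 0.12, -0.08 and -0.28, and none passed. With the longest transcript Cenpa (1.95), Birc5 (1.83) and Ube2s (1.75) rose. With the coding length Smc2 (1.04), Dlgap5 (0.73) and Kif23 (0.66), which lay below 0 on the deposited values, rose. The 3 longest members, Cenpe, Mki67 and Cenpf, had -0.43, -0.72 and -0.72, and none passed. The length trend and the genotype cannot be told apart in dKO, since each dKO library carried the trend.

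**Figure D4:**
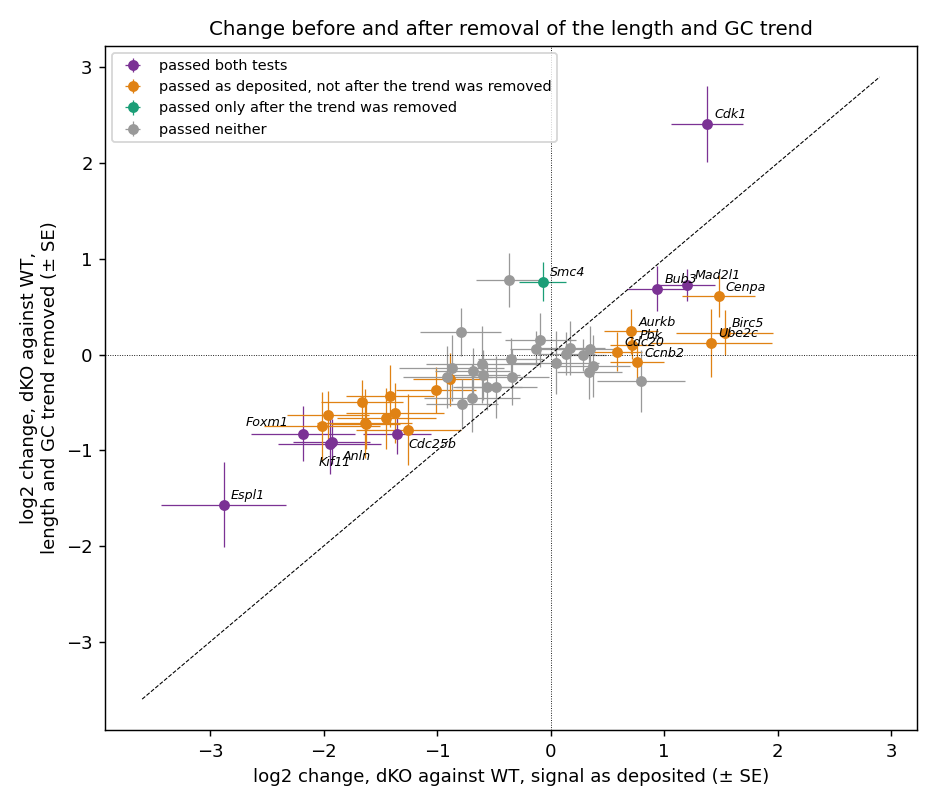
Log2 change in dKO against WT (± SE) of the 50 genes, on the deposited values (horizontal) and after the length and GC trend was removed (vertical), with the line of equal values dashed. Purple points, among them Cdk1, Mad2l1, Bub3, Foxm1 and Espl1, passed both tests, orange points lay near 0 on the vertical axis or kept part of their change, and Smc4 passed after the removal.

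The 3 dKO libraries were not alike. Relative to the WT mean, the median log2 difference of the 50 members was 0.30 in dKO replicate 1, -0.86 in replicate 2 and -1.004 in replicate 3, while over all genes tested it was -0.03, -0.08 and -0.08. In replicate 1, 35 members were above the WT mean, against 17 and 18 in replicates 2 and 3. The members over 4000 nucleotides had medians of -0.61, -2.28 and -2.10 in the 3 libraries and those up to 2000 nucleotides 0.86, 0.52 and 1.11. On the same scale the medians of the 9 other libraries ran from -0.32 in the library labelled Tet2 KO replicate 1 to 0.29 in Traf6 KO replicate 3. After the trend was removed the medians of the members still differed between the dKO libraries, at 0.30, -0.40 and -0.47, and that of Traf6 KO replicate 3 was 0.38. Without dKO replicate 1 the members' median change in dKO against WT was -0.96, and without dKO replicate 3 it was -0.20.

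**Figure D5:**
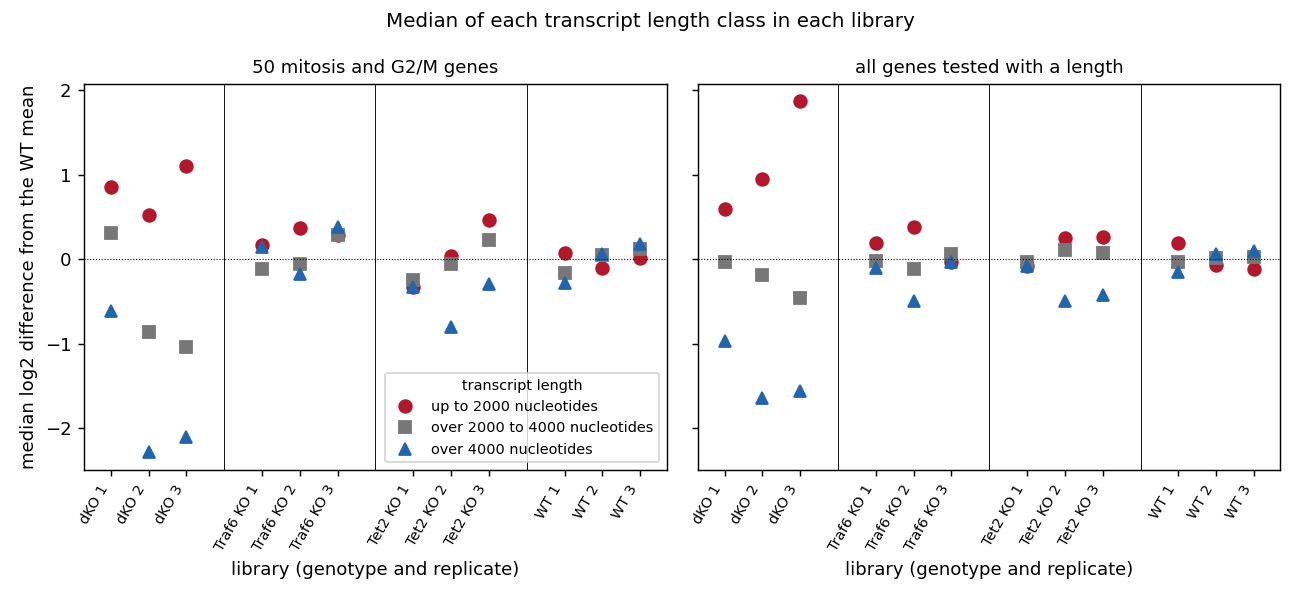
Median log2 difference from the WT mean in each library for 3 classes of transcript length, for the 50 genes (left panel) and for all genes tested with a length (right panel), dKO at the left and WT at the right of each. In dKO the short class lies above 0 and the long class below in both panels, and the members' middle class lies at 0.31 in dKO replicate 1 and at -0.86 and -1.04 in replicates 2 and 3.

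Against Traf6 KO, which asks what loss of Tet2 adds, 5 members rose and 16 fell in dKO (10% and 32%), where 17.3% and 20.7% of all genes tested did. The same libraries of dKO enter this comparison and the previous one. The smallest p-values were those of Anln (0.268 of Traf6 KO, log2 change -1.90 ± 0.34 SE, adjusted p = 0.00262), Espl1 (0.122, -3.04 ± 0.55 SE, adjusted p = 0.00274), Ncapd2 (0.264, -1.92 ± 0.36 SE, adjusted p = 0.00318) and Top2a (0.304, -1.72 ± 0.36 SE, adjusted p = 0.00507). The members that rose were Cdk1 (0.98), Bub3 (0.85), Mad2l1 (0.66), Cenpa (0.92) and Ube2s (1.15). After removal of the trend Cdk1 rose and 8 members fell, among them Anln (-1.10), Espl1 (-1.82), Kif4 (-1.32) and Kif11 (-1.14), where 6.11% and 8.32% of genes did. With the coding length in the trend Cdk1 (0.70), Anln (-0.69) and Kif4 (-0.93) did not pass (limma adjusted p = 0.0532, 0.0542 and 0.0618). Of these calls only the falls of Cdc25b, Espl1 and Kif11 held with each of the 3 lengths. Without the library labelled Traf6 KO replicate 1, 0 members rose and 10 fell, and without that library and the one labelled Tet2 KO replicate 1, 0 and 7. The number that rose was also 0 without dKO replicate 3 or Traf6 KO replicate 3 and 2 without WT replicate 2 or 3. The number that fell was 7 without Traf6 KO replicate 3, 9 without dKO replicate 2 and 29 without dKO replicate 1. Of the 21 calls 7 held in each of the 12 fits that left out a library. With dKO and Traf6 KO alone in the fit 0 rose and 3 fell. edgeR called 6 members higher and 11 lower, and 5171 of the 14045 genes in either direction. DESeq2 called 7 and 12 members, and 6392 genes.

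Against Tet2 KO, which asks what loss of Traf6 adds, 8 members rose and 10 fell in dKO (16% and 20%), where 15.5% and 19.9% of all genes did, so the shares were close to the background. The smallest p-values were those of Pbk (2.06-fold higher, log2 change 1.05 ± 0.20 SE, adjusted p = 0.00682), Mad2l1 (2.36-fold, 1.24 ± 0.24 SE, adjusted p = 0.00737), Ncapd2 (0.350 of Tet2 KO, -1.52 ± 0.36 SE, adjusted p = 0.0115) and Cdk1 (2.48-fold, 1.31 ± 0.32 SE, adjusted p = 0.0118). Birc5, Cenpa, Bub3, Ccnb2 and Ndc80 also rose (1.47, 1.18, 0.89, 0.70 and 0.59). With the trend removed Cdk1 (2.18) and Mad2l1 (0.75) rose and 0 members fell, where 6.58% and 4.27% of genes did. Without the library labelled Tet2 KO replicate 1, 2 rose and 0 fell. Without Tet2 KO replicate 2, 4 rose, and without Tet2 KO replicate 3, 2 fell. Without dKO replicate 1, 25 fell, without dKO replicate 2, 2 fell, and without dKO replicate 3, 5 rose and 2 fell. Of the 18 calls those of Pbk and Mad2l1 held in each of the 12 fits. With dKO and Tet2 KO alone in the fit 0 members passed. By contrast, edgeR called 7 members higher and 4 lower, and 4881 of the 14045 genes in either direction. DESeq2 called 10 and 10 members, and 6122 genes. With libraries scaled to equal totals 6 rose and 13 fell, and no share over all genes was taken.

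In the single knockouts no member passed limma against WT. In Traf6 KO against WT 0 of 50 passed limma, edgeR or DESeq2, where 0.0783% of all genes rose and 0.192% fell by limma, and 1 member (2%) had an unadjusted p under 0.05, against 7.80% of all genes. The smallest p-values were those of Mad2l1 (log2 change 0.54 ± 0.24 SE, adjusted p = 0.629), Pbk (0.37 ± 0.20 SE, adjusted p = 0.707), Cenpa (0.56 ± 0.32 SE, adjusted p = 0.732) and Ccnb2 (0.41 ± 0.24 SE, adjusted p = 0.737). The median of the members was 0.09 and single values ran from -0.58 to 0.79. In Tet2 KO against WT 0 of 50 passed limma or edgeR, where 0.107% of all genes rose and 0.306% fell by limma, and 4 members (8%) had an unadjusted p under 0.05, close to the 8.44% of all genes. These 4 were Cenpf (-1.13 ± 0.30 SE, adjusted p = 0.168), Espl1 (-1.35 ± 0.55 SE, adjusted p = 0.468), Cenpe (-0.95 ± 0.39 SE, adjusted p = 0.470) and Cdc25b (-0.70 ± 0.30 SE, adjusted p = 0.511). DESeq2, and the fit on Tet2 KO and WT alone, each called Cenpf lower (adjusted p = 0.0231 and 0.0285). The Tet2 KO median of the members over 4000 nucleotides was -0.44, against -0.33 over all genes of that class.

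The interaction asks whether loss of Traf6 did the same without Tet2 (dKO less Tet2 KO) as with it (Traf6 KO less WT), and is the first difference less the second. 0 of 50 members passed limma, edgeR or DESeq2, where 0.107% of all genes were higher and 0.114% lower by limma, and 12 members (24%) had an unadjusted p under 0.05, against 18.6% of all genes. The smallest p-values were those of Ncapd2 (-1.48 ± 0.51 SE, adjusted p = 0.232), Kif4 (-2.03 ± 0.72 SE, adjusted p = 0.233), Anln (-1.24 ± 0.48 SE, adjusted p = 0.247) and Top2a (-1.29 ± 0.51 SE, adjusted p = 0.254). Without dKO replicate 1, 17 of 50 members (34%) were lower, against 12.3% of all genes, and these 4 were among them (-1.93, -2.78, -1.64 and -1.82, adjusted p = 0.00756, 0.00394, 0.0151 and 0.00463). None of the other 11 libraries, left out in turn, gave a call. Spearman's rho between the interaction and transcript length was -0.73 across the members and -0.53 across 13660 genes. Ncapd2, Kif4, Anln and Top2a have transcripts of 4605 to 5221 nucleotides. With the length and GC trend removed and all 12 libraries kept, no member passed limma (smallest adjusted p = 0.320, Cdk1). The trend was not removed in the fit without dKO replicate 1, so the part of length in those calls was not tested.

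The wider mitotic machinery was read from 4 further lists of 107 genes, of which 106 were tested. In dKO against WT 24 rose and 28 fell, shares close to the 21.9% and 26.5% of all genes tested. Of 16 subunits and adaptors of the anaphase-promoting complex 6 rose and 3 fell, with Anapc1 (8942 nucleotides), its largest subunit, at -2.89 and Cdc27 at -1.54. Of 14 cohesin subunits and regulators 2 rose and 8 fell, with Pds5a at -3.29 and Pds5b at -2.05, both of which bind the cohesin ring. Of 29 other kinetochore proteins 12 rose and 3 fell, with Cenph (1251 nucleotides), a protein of the inner kinetochore, at 1.94 and Kntc1 (6961 nucleotides), which recruits dynein, at -2.61. Of 47 other G2/M regulators 4 rose and 14 fell, with Rbl2 (p130), a pocket protein of the DREAM repressor of cell cycle genes, at -2.64 and Ckap5, a microtubule polymerase, at -2.61. The median of all 106 was -0.13. Once the trend was removed 20 rose and 14 fell, against 13.1% and 12% of 13660 genes. The anaphase-promoting complex list then had 4 up and 1 down, cohesin 1 and 3 and other kinetochore proteins 8 and 2. Other G2/M regulators had 7 and 8. Medians were 0.21, 0.21, 0.38 and -0.12 in this order. On the deposited values the cohesin median was -0.84. That list had a median length of 4895 nucleotides, and of all genes over 4000 nucleotides 59.3% fell.

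Against the single knockouts these lists also held members called in both directions. Against Traf6 KO 14 of 106 rose and 25 fell in dKO (17.3% and 20.7% of all genes tested), with Anapc1 (-2.67), Cdc27 (-1.39), Pds5a (-2.96), Stag2 (-2.07), Kntc1 (-2.33), Cenph (1.26), Ckap5 (-2.42) and Iqgap3 (-2.28) having the smallest p of their lists. Against Tet2 KO 21 rose and 24 fell (15.5% and 19.9% of all genes tested), with Anapc16 (1.50), Anapc1 (-1.75), Pds5a (-2.22), Stag1 (-1.51), Cenph (1.51), Cenpk (1.48), Rbl2 (-2.15) and Ncapg2 (-2.07). Without the trend 3 rose and 12 fell against Traf6 KO (6.11% and 8.32% of 13660 genes) and 11 rose and 3 fell against Tet2 KO (6.58% and 4.27%). In Traf6 KO against WT, Tet2 KO against WT and the interaction 0 of 106 passed limma.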

How the data were processed

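Per the submitters' processing notes, the authors used bcl2fastq, STAR, featureCounts and DESeq2 with mm10 (GRCm38); the sources used here give neither versions nor the strand setting. Per the labels' protocols, cDNA was made with a SMART-Seq kit, which does not mark strand, so antisense overlaps cannot be told apart. The authors deposited normalised signal, whole reads divided by a size factor per library (100% of values came out whole, tolerance 1e-06). The sort was done before RNA extraction, per the labels.

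The values were tested with limma 3.58.1 (R 4.3.3; trend, robust) on log2(signal + 1), a scale that understates changes of low genes, with all 12 libraries in 1 fit of 4 groups (8 residual degrees of freedom) and no covariates. Adjusted p-values are Benjamini-Hochberg values over 14045 genes, threshold 0.05. Alternatives used edgeR 4.0.16 and DESeq2 1.42.0 on the recovered reads. A loess trend (span 0.5) of log2 signal on length and GC content of the APPRIS principal transcript (GENCODE M21, 13660 genes) was removed per library as an alternative. Same-numbered libraries did not deviate together (correlations -0.18 to 0.19 over 18 pairs), so replicate numbers were not used as pairs. Fits were tested on simulated data.

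Members and lists were chosen with earlier results of these data known. Values in every library are given for 12 anchors, the 3 shortest and 3 longest members, and members called against the members' median direction, and, chosen after their values were seen, Anln, Espl1 and Ncapd2. Statistics are given for the 4 smallest p-values per comparison and the 2 smallest per pathway list. Hbb-bs and Hbb-bt were not matched.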

Additional observations from a re-analysis of the deposited data

How the results depend on the processing

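Pseudocount 5 and a filter of at least 50 in at least 3 libraries changed no call among the 77 named results. Each count below is of the 50 members, higher then lower. With equal totals, other filters, fits on 2 groups, the replicate block or other lengths no share over all genes was taken. The same holds for left-out libraries, apart from the interaction without dKO replicate 1. With the length and GC trend removed, dKO against WT had 4 and 5, dKO against Traf6 KO 1 and 8 and dKO against Tet2 KO 2 and 0. Libraries scaled to equal totals gave 5 and 19, 3 and 18, and 6 and 13 in the same order of comparisons. With no filter on low values dKO against Traf6 KO had 1 and 12. By edgeR dKO against Tet2 KO had 7 and 4, where 4881 of 14045 genes were called in either direction. With only the 2 compared groups in the fit, dKO against Traf6 KO had 0 and 3, dKO against Tet2 KO 0 and 0, and Tet2 KO against WT 0 and 1, as it had by DESeq2; the interaction has no such fit.

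Alternatives chosen after seeing the data were other lengths in the trend and libraries left out together. With the longest transcript, dKO against WT had 10 and 6 and dKO against Tet2 KO 0 lower. With the coding length, dKO against WT had 12 and 3, dKO against Traf6 KO 3 and 5 and dKO against Tet2 KO 0 lower, and the members' medians were 0.30, 0.091 and 0.24, and 0.27 in Traf6 KO against WT. With the trend removed and dKO replicate 3 left out, dKO against WT had 3 and 4, dKO against Traf6 KO 1 and 3 and dKO against Tet2 KO 3 and 0. Without the libraries labelled Tet2 KO replicate 1 and Traf6 KO replicate 1, dKO against Traf6 KO had 0 and 7 and dKO against Tet2 KO 0 and 0.

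Leaving out each library in turn gave dKO against WT 6 to 10 higher, 11 to 27 lower and a median of -0.96 to -0.20. It gave dKO against Traf6 KO 0 to 7 higher, 7 to 29 lower and a median of -0.85 to -0.22, and dKO against Tet2 KO 2 to 8 higher, 0 to 25 lower and a median of -0.74 to -0.22. The interaction had 0 to 17 lower and a median of -0.80 to -0.20. The medians ran from -0.03 to 0.15 in Traf6 KO against WT and from -0.23 to 0.05 in Tet2 KO against WT, with 0 calls in each.

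The replicate numbers did not pair the samples. With the replicate block dKO against WT had 10 and 15, dKO against Traf6 KO 5 and 13, dKO against Tet2 KO 8 and 10, and the other comparisons 0. With the trend removed and the replicate block these 3 had 5 and 3, 1 and 8, and 3 and 0.

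With 1 library left out, the medians of Traf6 KO against WT and Tet2 KO against WT took both signs. Among the 77 named results signs turned only under the trend, and no turned value passed the test. Of the other members, Smc4 turned and passed in dKO against WT with each length (0.76 with the principal transcript, 0.60 with the longest and 1.35 with the coding length) and with the coding length also against Traf6 KO (0.78) and Tet2 KO (0.76). Smc2 (1.04), Dlgap5 (0.73) and Kif23 (0.66) turned and passed in dKO against WT with the coding length. Among the named results in dKO against WT, Ccnb2 had -0.078 with the principal transcript (with and without the replicate block) and -0.17 with the longest, where Mki67 had 0.010, Pbk -0.0042 and Cdc20 -0.15. With the coding length Cenpe had 0.0043, Bub1b 0.043, Incenp 0.18, Bub1 0.13 and Ncapg 0.45. Ube2c had -0.16 with the trend on principal transcripts removed and dKO replicate 3 left out. In dKO against Traf6 KO Cenpf had 0.0059 with the longest transcript and 0.0060 with the coding length, where Ncapg had 0.044. In dKO against Tet2 KO Ccnb2 had -0.018, and -0.10 with the longest transcript. The cause of these differences was not tested. The lowest member value rested on 72 reads.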
